A study of Mus musculus with 14 samples.

Results

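Luminal cells of the 24-month-old mouse prostate that carry the surface protein Trop2 were set against luminal cells of the same age that lack it, across all genes. The comparison used 4 of the 14 libraries of the series, 2 Trop2-positive and 2 Trop2-negative, which were chosen by their sample titles and by no measured value. Of the 24054 genes in the tables, 13598 had enough counts to be tested. The series as a whole measured RNA in luminal cells of both kinds and in stromal cells, sorted from the prostates of C57BL/6 mice aged 3 or 24 months. Each luminal group had 2 libraries at each age, and the stromal cells had 3 libraries at each age. Both groups compared here were prostate luminal cells of 24-month-old C57BL/6 mice, and they differed in the Trop2 sort. The labels name no transgene, deletion, treatment or agent for any group. The labels call the luminal libraries biological duplicates and do not say how many mice gave each library, so a p-value measures the spread between these libraries only. The sorting gates and the lobes of the prostate that were taken are not given in the sources used here.

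Trop2 is a transmembrane glycoprotein of epithelial cells. In the mouse prostate it is used to sort a luminal population that lies mainly in the proximal ducts, near the urethra, and that forms colonies and organoids more readily than other luminal cells. The luminal cells of the distal ducts are mainly secretory: they release proteins, zinc and citrate into the prostatic fluid under control of androgens. Beneath the luminal layer lie basal cells, which make keratins 5 and 14, depend on the transcription factor p63 and sit on the basement membrane through hemidesmosomes.

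The 4 libraries held between 6311944 and 7212231 expected counts, and 3 counts, the lower limit used for a gene at 0, were worth 0.416 to 0.475 CPM (counts scaled to the size of the library). In the sentences that follow, a pair of values is always library 1 and then library 2 of a group, and levels are CPM after TMM scaling unless TPM, which corrects for transcript length, is named. A value after ± is the standard error for a log2 difference and the SD of 2 libraries for a level. A gene is called higher or lower, always in Trop2-positive relative to Trop2-negative cells, where its adjusted p was under 0.05. The libraries also differed in a way the groups do not explain. Svs1, a gene of the seminal vesicle, stood at 362 CPM of the total in Trop2-negative library 1, 180 in Trop2-positive library 2 and 117 in a young Trop2-negative library, and at 0 to 0.792 in the other 5 luminal libraries. Markers of stromal and blood cells were low in all 4 old libraries. The 7 fibroblast markers summed to 15.1 and 25.0 CPM of the total in Trop2-positive and 35.5 and 28.8 in Trop2-negative libraries, the 6 smooth muscle markers to between 3.81 and 8.71, the 6 endothelial markers to between 0.419 and 8.87, and the 11 lymphocyte markers to between 11.6 and 15.9. The 9 myeloid markers summed to 26.6 and 27.2 in Trop2-positive and 15.2 and 12.4 in Trop2-negative libraries, with Lyz2, Tyrobp and C1qa at 0 in all 4. The defining lymphocyte genes Cd3e and Cd2 were also at 0 in all 4. Markers of neighbouring epithelia were summed too. The 10 basal markers came to 1295 and 1233 CPM of the total against 1044 and 850. Most of that sum was Dst, at 961 and 931 against 908 and 733, which was not called and had a median of 940 in the stromal libraries. The 5 urothelial markers came to 186 and 147 against 27.8 and 64.8, with Upk3a, a defining urothelial gene, at 0 in all 4.

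The promoters of 5 genes are shown first. These genes, which lie in the wound-response, protease and coagulation groups described below, were all called higher in Trop2-positive cells and carry the binding motif of AP-1, the dimer of Fos and Jun proteins whose genes were measured in the same libraries. They were picked for holding the motif, so its presence in them is not a result. Each is the stretch from 200 to 21 bases before the RefSeq start of transcription (RefSeq, GRCm38.p6), written 5′ to 3′ on the gene's own strand, with TGACTCA or its reverse complement TGAGTCA in capitals. Plaur lies at chr7:24462283-24462462 (plus strand), F3 at chr3:121723337-121723516 (plus), Mmp7 at chr9:7691890-7692069 (plus), Sprr1a at chr3:92485902-92486081 (minus) and Ivl at chr3:92573756-92573935 (minus).
Plaur: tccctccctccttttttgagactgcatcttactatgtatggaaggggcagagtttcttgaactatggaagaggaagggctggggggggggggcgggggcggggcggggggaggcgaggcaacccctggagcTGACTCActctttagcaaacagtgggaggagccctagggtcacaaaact
F3: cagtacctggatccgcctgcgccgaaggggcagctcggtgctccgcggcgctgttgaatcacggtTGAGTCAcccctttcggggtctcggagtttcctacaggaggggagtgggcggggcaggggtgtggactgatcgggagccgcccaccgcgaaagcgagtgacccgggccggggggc
Mmp7: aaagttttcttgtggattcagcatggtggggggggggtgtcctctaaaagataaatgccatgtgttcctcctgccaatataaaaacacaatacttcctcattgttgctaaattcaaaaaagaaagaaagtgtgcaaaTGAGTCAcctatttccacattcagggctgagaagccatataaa
Sprr1a: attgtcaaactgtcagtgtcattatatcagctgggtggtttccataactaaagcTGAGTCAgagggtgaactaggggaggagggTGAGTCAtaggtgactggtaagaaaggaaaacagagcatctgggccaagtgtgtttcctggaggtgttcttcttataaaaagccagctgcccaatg
Ivl: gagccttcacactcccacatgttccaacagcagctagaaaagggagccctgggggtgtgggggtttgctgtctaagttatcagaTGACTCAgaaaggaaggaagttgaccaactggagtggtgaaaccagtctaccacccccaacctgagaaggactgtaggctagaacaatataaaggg
The motif begins 69 bases before the start of Plaur, 135 before that of F3, 63 before that of Mmp7 and 116 before that of Ivl, and it occurs in a pair in Sprr1a, 146 and 116 bases before the start. The bases after the RefSeq start of Sprr1a were not found in a GENCODE transcript of the gene, unlike those of the other 4 genes, so its distances are less certain. Searched on both strands of a 300-base window, 250 bases before to 50 after the start, TGACTCA was in 58 of the 770 genes called higher that matched the promoter table (7.53%) and in 28 of the 529 called lower (5.29%). It was in 495 of the 10183 tested genes that matched (4.86%) and in 5.95% of all 27025 genes of the table. Among 17 squamous genes with a promoter listed, 6 held it, as did 7 of 23 genes of the senescence and protease list, 4 of 22 glutathione transferases and 0 of 22 immediate early genes. Of the holders, 3 squamous and 2 protease genes were called higher and 2 transferases lower, and 2 squamous and 4 protease genes were not tested. The core of the antioxidant response element, TGACNNNGC, was in 19.0% of the genes called higher, 15.5% of those called lower and 17.0% of those tested. A match describes letters in a window and says nothing of binding.

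The 3 markers given with the comparison divided in direction. Anxa1, which encodes annexin A1, an anti-inflammatory phospholipid-binding protein (GRCm38, chromosome 19, 20373428 to 20390944), stood at 924 and 805 CPM against 35.2 and 56.0 (4.25 ± 0.25, 19.0-fold, adjusted p = 1.14e-06). Gsto1, an omega-class glutathione transferase (chromosome 19, 47854970 to 47864790), stood at 447 and 374 against 15.9 and 26.2 (4.29 ± 0.24, adjusted p = 6.90e-07). In neither gene did the libraries of the groups overlap, which 57.0% of all genes tested also showed. Col7a1, the collagen of the fibrils that anchor epithelium to connective tissue (chromosome 9, 108953586 to 108984875), went the other way, at 21.7 and 25.2 CPM against 243 and 240, which is 10.3-fold lower (-3.36 ± 0.16, adjusted p = 1.83e-07). It had the smallest p-value of all genes tested.

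**Figure D1:**
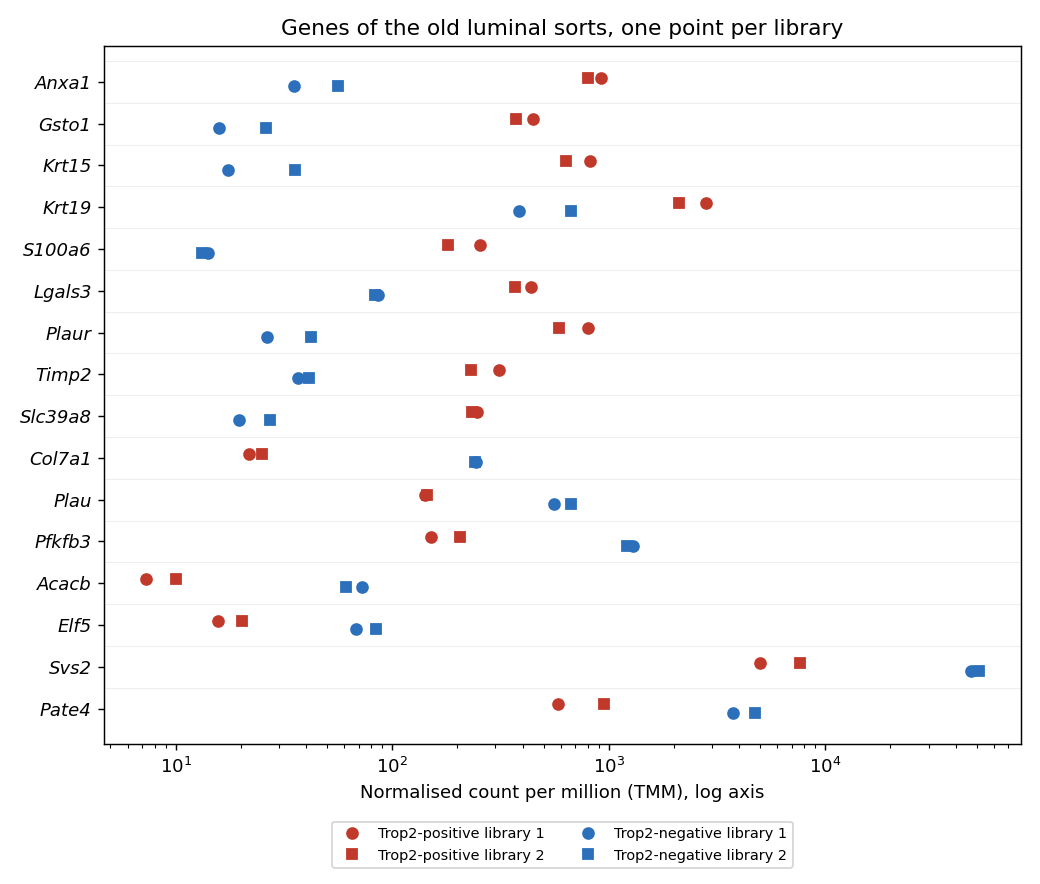
Level of 16 named genes in each of the 4 old luminal libraries, as TMM-scaled CPM on a log axis, one point per library (red Trop2-positive, blue Trop2-negative, circle library 1, square library 2). The 9 genes at the top sit higher in both Trop2-positive libraries, and the 7 at the bottom, from Col7a1 (21.7 and 25.2 against 243 and 240) to Pate4, sit lower in both.

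Across all genes, 1774 of 13598 were called, which is 13.0% of those tested, 1082 higher (7.96%) and 692 lower (5.09%). The median log2 difference over all genes tested was -0.02. Of the calls, 1060 exceeded 2-fold, and the large differences were mostly increases: 169 genes were more than 8-fold higher and 23 more than 8-fold lower. In all 1774 called genes the libraries of the groups did not overlap, which 57.0% of all genes tested also showed, so separation of 2 libraries from 2 by itself means little here. The count fell when some libraries were left out. Setting aside the 3 high-Svs1 libraries left only Trop2-positive library 1 against Trop2-negative library 2 in the old comparison. Leaving out an old library likewise left a single library in its group. In such fits, here and below, an effect of the libraries removed cannot be told apart from the loss of replication. Each of the 8 luminal libraries was left out in turn, and 621 calls (35.0%) held every time, 435 higher and 186 lower. These are spoken of below as the calls that held in every fit with a library left out.

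**Figure D2:**
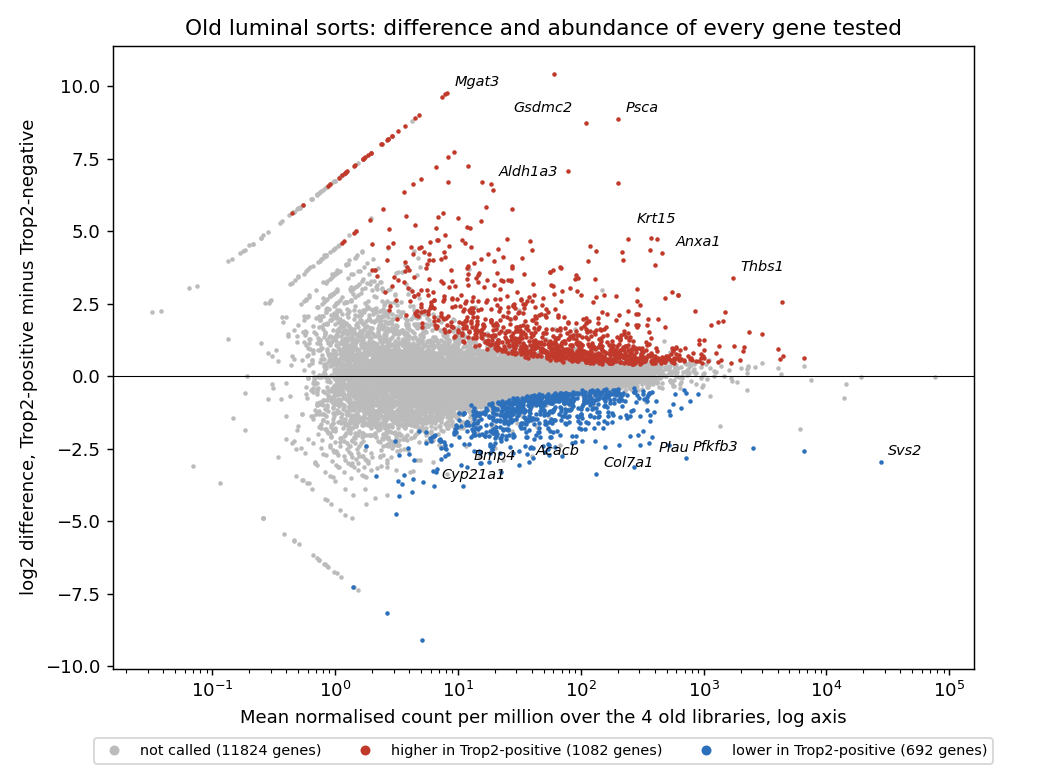
Log2 difference (Trop2-positive minus Trop2-negative) of every gene tested against its mean level over the 4 old libraries, in CPM on a log axis, with 1082 genes called higher in red, 692 called lower in blue and 11824 not called in grey. The spread narrows as the level rises, and the diagonal lines at the far left and at top are genes with 0 counts in a group, whose fitted difference is set by the count added in the fit and is no estimate of a fold.

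The largest increases were of genes nearly silent in Trop2-negative cells. Psca, a small surface antigen of proximal prostate and bladder epithelium, stood at 496 and 313 CPM against 0 and 1.84 (8.87 ± 0.75, adjusted p = 0.000949). Gsdmc2, a gasdermin of the pore-forming family, stood at 255 and 185 against 0 and 1.07, and its relative Gsdmc3 at 148 and 95.1 against 0 and 0.153. These copies share sequence, with 51.3% of Gsdmc2's and 46.0% of Gsdmc3's 50-base windows found in another gene, so the family is better read as a sum. The Gsdmc sum was 357 ± 75.6 CPM of the total in Trop2-positive and 0.634 ± 0.896 in Trop2-negative libraries. Both old Trop2-negative libraries held no count at all for Mgat3, a glycosyltransferase that adds a bisecting sugar to N-glycans, for Clca3, a secreted chloride channel regulator, or for Aspa, which splits N-acetylaspartate. Against the limit of 3 counts per library, these were at least 38.1-fold, 34.1-fold and 22.4-fold higher. Among the decreases, Cyp21a1, the steroid 21-hydroxylase, stood at 0.911 and 0.778 CPM against 11.2 and 12.6 (-3.79 ± 0.61, adjusted p = 0.000979), and Sod3, the extracellular superoxide dismutase, at 0.456 and 1.04 against 7.58 and 11.8 (-3.64 ± 0.66, adjusted p = 0.00234). Both of these calls held in every fit with a library left out.

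Of the 14 proximal luminal markers, 12 were higher and 1, Col7a1, lower. Their median log2 difference was 3.56. Wfdc2, a secreted protease inhibitor, stood at 166 and 92.1 CPM against 7.58 and 11.8 (3.74 ± 0.31). Ppp1r1b, a phosphatase inhibitor, stood at 202 and 147 against 17.3 and 16.1 (3.38 ± 0.23), and Ly6a, the surface protein Sca-1, at 122 and 90.4 against 17.0 and 12.3 (2.85 ± 0.22). Clu, the chaperone clusterin, was abundant in both groups and 1.45 ± 0.16 higher on the log2 scale. Cldn10, a tight junction claudin, was the single marker that was not called, at 38.1 and 45.5 against 50.2 and 81.3 (adjusted p = 0.0888). All but Krt4 of the 13 calls held in every fit with a library left out. These markers were gathered with earlier results of these data known, so their count describes the cells and is not independent evidence of what they are.

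Keratins, the intermediate filament proteins of epithelia, moved in a graded way. Of 16 keratin genes tested, 10 were higher and 0 lower by edgeR, and the median log2 difference was 2.69, or 2.32 with genes at 0 set at their lower bound. An unadjusted p under 0.05 was reached by 12 of them, and DESeq2 called 12. The simple luminal keratins were the most abundant per transcript length, and of these Krt8 and Krt18 showed small differences. Krt8 stood at 6693 and 6398 TPM against 3989 and 4142 (log2 difference of counts 0.69 ± 0.17, adjusted p = 0.0172), and its partner Krt18 did not pass the test (0.34 ± 0.16, adjusted p = 0.210). Krt19 stood at 2824 and 2106 CPM against 386 and 667 (2.23 ± 0.24, adjusted p = 9.31e-05), and Krt7 at 403 and 340 against 218 and 158 (0.98 ± 0.17). Keratins of stratified and wounded epithelium showed the widest gaps. Krt4 stood at 458 and 338 CPM against 0.643 and 7.51, and Krt6a, a keratin of wound edges, at 202 and 113 against 0 and 2.45 (7.09 ± 0.83, adjusted p = 0.00344). Krt13 was at 9.72 and 4.80 against 0 and 0.153, and Krt16 at 8.35 and 2.47 against 0 and 0, at least 12.3-fold. The basal keratins were a different case. Krt5 was at 3.65 and 2.98 CPM against 0.257 and 1.23 and did not pass the test (adjusted p = 0.236), Trp63, the gene of p63, was at 0.304 and 1.17 against 0 and 0 and did not pass either (adjusted p = 0.118), and Krt14 was higher at 19.9 and 12.8 against 2.31 and 0.153 (adjusted p = 0.00611). The Krt14 call, with those of Krt4, Krt8, Krt16 and Krt20, was lost when a library was left out. Krt17 was at 25.4 and 20.8 against 3.34 and 5.37 and did not pass the test (2.41 ± 0.75, adjusted p = 0.0652). Of 8 basal markers tested, 3 were higher, Krt14, Col17a1 and Itgb4, and 0 lower by edgeR, while 6 had an unadjusted p under 0.05, DESeq2 called 4 and all 8 had a log2 difference above 0. The median was 2.28, or 1.75 with bounds. In bulk libraries a few basal cells in the sort and a little RNA in every cell cannot be told apart.

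**Figure D3:**
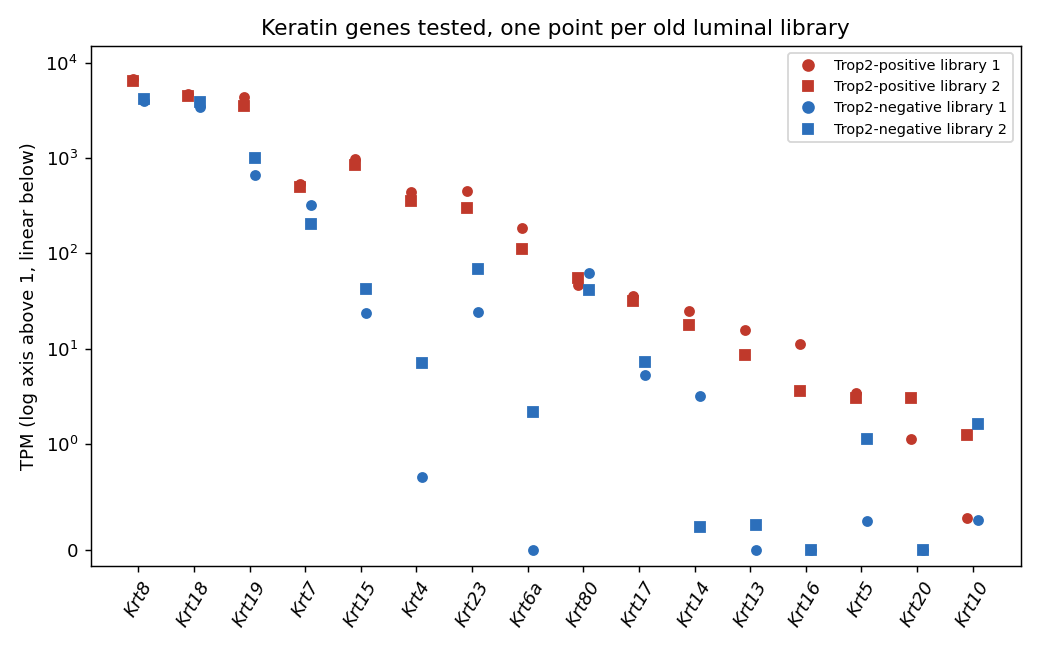
TPM of the 16 keratin genes tested in each old luminal library (log axis above 1 TPM, linear below, red Trop2-positive, blue Trop2-negative, circle library 1, square library 2). The groups lie close for Krt8 and Krt18 and far apart for Krt6a, Krt4 and Krt15 (988 and 839 against 23.6 and 42.2 TPM), while Krt5 and Krt10 are low in all 4 libraries.

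Genes of squamous differentiation, which build the cornified envelope of skin and of wounded epithelia, were higher in 11 of 14 tested and lower in 0 by edgeR, with 13 of 14 at an unadjusted p under 0.05 and 13 called by DESeq2. Krt6a, Krt13 and Krt16 belong to this list as well as to the keratin list. The median was 3.18, or 2.73 with bounds, and 9 of the 11 calls held in every fit with a library left out. Without the libraries with high Svs1, 9 were higher. Of 4 urothelial markers tested, 3 were also higher and 0 lower by edgeR, with 3 at an unadjusted p under 0.05 and 3 called by DESeq2. Unlike most of the squamous calls, each of these urothelial calls was lost in a fit with a library left out. Their part, or that of basal cells, in the keratin and squamous values was not tested. Sprr1a, a small proline-rich precursor of the envelope, stood at 985 and 700 CPM against 83.1 and 174 (2.71 ± 0.34, adjusted p = 0.00155). Ivl, involucrin, stood at 42.8 and 17.1 against 0 and 1.53 (5.34 ± 0.87). Lgals3, galectin-3, at 436 and 370 against 86.0 and 83.3 (2.25 ± 0.14, adjusted p = 6.90e-07), had the closest replicates of the group. The scaffold proteins that tie keratins to the envelope also rose: Evpl, envoplakin, by 1.65 ± 0.17 and Ppl, periplakin, by 1.52 ± 0.21 on the log2 scale. Sfn, an epithelial 14-3-3 protein, stood at 547 and 412 against 106 and 108. Tgm1, the transglutaminase that cross-links the envelope, was under 4 CPM in all 4 libraries and did not pass the test (0.53 ± 0.83). The Sprr2 genes share reads, and summed over the family they reached 239 ± 92.9 CPM of the total against 27.6 ± 14.1.

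Annexins and S100 proteins, calcium-binding partners at the inner face of membranes, followed in many members. Of 11 annexins, 7 were higher and 2 lower, and the median was 0.54. Of these 9 calls 3 held in every fit with a library left out, and 4 were higher and 1 lower without the libraries with high Svs1. Anxa3 stood at 253 and 201 CPM against 4.88 and 15.5 (4.51 ± 0.43, adjusted p = 0.000408). Anxa2 stood at 745 and 609 against 175 and 173 (1.96 ± 0.14, adjusted p = 1.71e-06), and S100a10, which binds annexin A2 in a membrane complex, at 241 and 204 against 67.1 and 78.2 (1.61 ± 0.16). In both genes the Trop2-positive libraries were above the Trop2-negative ones, which was so of every gene called higher. Anxa6 (-0.50 ± 0.14) and Anxa9 (-1.50 ± 0.41) were lower. Of 9 S100 genes, 5 were higher and 0 lower by edgeR, 7 had an unadjusted p under 0.05 and DESeq2 called 5. All 5 calls held in every fit with a library left out. S100a6, calcyclin (chromosome 3, 90612882 to 90624181), stood at 253 and 180 against 14.1 and 13.2 (3.98 ± 0.21, 15.8-fold, adjusted p = 2.39e-07), and S100a14 was higher by 4.40 ± 0.39.

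Adhesion to the basement membrane divided by component. Laminin-332, the heterotrimer that hemidesmosomes bind, includes the products of Lama3 and Lamb3, and both genes were higher. Lamb3 was at 21.0 and 12.1 against 0 and 0.307, and Lama3 at 25.5 and 16.7 against 1.93 and 7.51. Itgb4, the integrin chain of the hemidesmosome, stood at 243 and 210 CPM against 110 and 90.0 (1.18 ± 0.18), and Col17a1, its transmembrane collagen, at 10.8 and 6.49 against 0.129 and 0. Itga6, the partner of Itgb4, had 325 and 276 against 246 and 207 and did not pass the test (adjusted p = 0.0913). The anchoring collagen Col7a1 and the basement membrane proteoglycan Hspg2 (-1.15 ± 0.24) were the 2 lower members of this list, beside 10 higher of 29 tested (median 0.43). Integrins of other ligands rose too, Itgb6 by 2.61 ± 0.29 and Itgb8 by 2.64 ± 0.37 on the log2 scale, both of which bind latent TGF-beta.

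Cell-to-cell junction genes were higher in 15 of 34 tested and lower in 1 (median 0.58), mostly by less than 2-fold. Epcam, a homophilic adhesion protein, stood at 1586 and 1267 CPM against 496 and 699 (1.26 ± 0.19). Cdh1, E-cadherin, stood at 3029 and 2630 against 1295 and 1544 (1.00 ± 0.16), and Tjp1, which links tight junctions to actin, at 500 and 456 against 265 and 277 (0.82 ± 0.14). The desmosomal genes Dsp (0.79 ± 0.15) and Jup (0.63 ± 0.13) were higher as well. Cldn2, a claudin that forms a cation pore, was the lower member, at 1.82 and 1.69 against 16.6 and 8.89. Of these 16 calls 7 held in every fit with a library left out, and without the libraries with high Svs1 the counts were 3 higher and 0 lower by edgeR.

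The plasminogen system showed opposite changes in a protease and its receptor. Plaur, the urokinase receptor (chromosome 7, 24462484 to 24475968), stood at 805 and 588 CPM against 26.5 and 42.0 (4.35 ± 0.26, 20.4-fold, adjusted p = 1.71e-06). Plau, urokinase itself (chromosome 14, 20836660 to 20843385), stood at 142 and 144 against 562 and 668, 4.30-fold lower (-2.10 ± 0.14, adjusted p = 1.42e-06). The groups did not overlap in either gene, which was so of every called gene. Plat, the tissue-type activator, was higher at 111 and 61.4 against 7.71 and 19.0 (2.70 ± 0.51), and Serpine2, a secreted inhibitor of these proteases, lower at 130 and 200 against 372 and 361 (-1.15 ± 0.18). Mmp7, matrilysin, stood at 635 and 388 against 78.3 and 108 (2.46 ± 0.35), and Timp2, a metalloproteinase inhibitor, at 311 and 232 against 36.6 and 41.2 (2.80 ± 0.20, adjusted p = 1.67e-06). F3, tissue factor, which starts coagulation, stood at 609 and 407 against 54.6 and 73.0 (3.00 ± 0.26). Thbs1, thrombospondin 1, was among the most abundant of the changed genes, at 3735 and 2599 against 223 and 381 (3.39 ± 0.31).

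These protease genes belong to a list of senescence-associated and secreted factors, of which 9 of 23 tested were higher and 2 lower (median 0.96). The members that moved were mostly the proteases and their partners. Igfbp7, a secreted binding protein, stood at 69.9 and 56.2 CPM against 3.08 and 4.45 (4.07 ± 0.34). Cdkn1a, the p53 target that halts the cell cycle, was higher by 1.27 ± 0.19. Cdkn2a, the gene of p16 and p19, was at 0.608 and 1.17 against 1.54 and 2.45 (-1.14 ± 1.39, adjusted p = 0.682), and Trp53 did not pass the test (-0.08 ± 0.25). Lmnb1, a nuclear lamin known to be lost from senescent cells, was higher at 135 and 101 against 23.8 and 32.7 (2.06 ± 0.26). Gdf15, a stress-induced cytokine, was at 2.73 and 8.30 against 41.1 and 40.5, a wide gap that did not pass the test (-2.87 ± 0.86, adjusted p = 0.0739). All calls of this list except Igfbp5 held in every fit with a library left out, and without the libraries with high Svs1 the counts were again 9 and 2.

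Among growth factors, ligands of the EGF receptor and the receptor itself were higher. Areg, amphiregulin, stood at 73.7 and 34.6 CPM against 0.771 and 1.23 (5.75 ± 0.45, adjusted p = 3.52e-06). Hbegf stood at 871 and 614 against 197 and 260 (1.70 ± 0.18), and Egfr at 76.4 and 61.9 against 19.4 and 14.6 (2.02 ± 0.27). Lrig1, which promotes the breakdown of EGF receptors and marks quiescent stem cells in other epithelia, was lower at 8.96 and 8.04 against 33.0 and 26.7 (-1.81 ± 0.31). Errfi1, a feedback inhibitor of the same receptor, was higher at 1286 and 1096 against 709 and 701 (0.76 ± 0.15). In all, 6 of 14 genes of the family were higher and 1 lower (median 0.99), 4 of these calls held in every fit with a library left out, and without the libraries with high Svs1 the counts were 3 higher and 0 lower by edgeR. Egf (0.45 ± 0.18) and Erbb2 (-0.49 ± 0.15, adjusted p = 0.0547) did not pass the test.

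FGF receptors differed in opposite directions. Fgfr3 (chromosome 5, 33721674 to 33737068) stood at 62.0 and 41.4 CPM against 5.14 and 2.15 (3.79 ± 0.40), and Fgfr1 at 41.6 and 61.2 against 162 and 113 (-1.41 ± 0.23). Fgfr2, the receptor of stromal FGF10, did not pass the test, at 116 and 106 against 119 and 101 (0.02 ± 0.16). Per length, Fgfr3 at 30.4 and 22.1 TPM and Fgfr1 at 16.6 and 26.7 TPM overlapped in the Trop2-positive libraries, whereas in the Trop2-negative ones Fgfr3 was at 2.89 and 1.04 TPM and Fgfr1 at 71.2 and 44.0. Spry2, a feedback inhibitor of receptor signalling, was higher at 101 and 71.5 CPM against 13.2 and 21.3 (2.33 ± 0.27). Over the whole family 2 of 19 were higher and 2 lower, and the median was -0.00.

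Of 27 Wnt ligands, receptors and regulators, 2 were higher and 1 lower. That is 11.1% called, beside 13.0% of all genes tested, so the members below are given as single genes. Wnt7b, an epithelial ligand, stood at 70.9 and 55.9 CPM against 13.4 and 19.9 (1.93 ± 0.24), and Ror2, a receptor of non-canonical Wnts, at 12.6 and 9.60 against 0 and 1.23, while its relative Ror1 was lower at 2.43 and 2.85 against 10.9 and 14.7. Of 16 Wnt effectors and targets, 5 were lower and 2 higher (median -0.11). The lower ones were Lef1 and Tcf7, the DNA-binding partners of beta-catenin, and Axin2, Nkd1 and Znrf3, feedback inhibitors that canonical signalling induces. Lef1 stood at 7.44 and 19.2 against 60.4 and 55.2 (-2.11 ± 0.51) and Axin2 at 38.0 and 48.9 against 123 and 86.3 (-1.27 ± 0.27). None of these 5 calls held in every fit with a library left out. Cd44, a hyaluronan receptor used as a stem cell marker, was the higher member that did hold, at 302 and 209 against 8.10 and 17.5 (4.33 ± 0.40).

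Notch genes were higher in 5 of 16 tested and lower in 0 by edgeR, with 7 at an unadjusted p under 0.05 and 5 called by DESeq2. Notch2 stood at 208 and 192 CPM against 71.3 and 61.9 (1.59 ± 0.15, adjusted p = 2.01e-05), Notch3 was higher by 1.41 ± 0.35, and Notch1, at 279 and 310 against 349 and 318, did not pass the test (-0.18 ± 0.15). Hes1, a direct Notch target, was higher by 0.92 ± 0.17. In the TGF-beta and BMP list 5 of 27 were higher and 4 lower (median 0.23). Bmp2 stood at 27.6 and 17.4 against 1.67 and 1.53 (3.79 ± 0.70), and Bmp4 at 3.49 and 1.43 against 35.2 and 7.05 (-3.12 ± 0.76, adjusted p = 0.0206), where the Trop2-negative libraries were far apart and the call was lost when a library was left out. Tgfbr2, the type II receptor, was higher by 0.91 ± 0.17. Of 8 hedgehog genes 2 were higher and 0 lower by edgeR, with 4 at an unadjusted p under 0.05 and 3 called by DESeq2: Shh at 8.05 and 5.97 against 0 and 0.92 and Smo by 1.15 ± 0.29. In every fit with a library left out, 2 of the 5 Notch, 3 of the 9 TGF-beta and BMP and 0 of the 2 hedgehog calls held. Without the libraries with high Svs1 the counts were 2 higher for Notch, 3 higher and 0 lower for TGF-beta and BMP, and 1 higher for hedgehog, by edgeR.

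**Figure D4:**
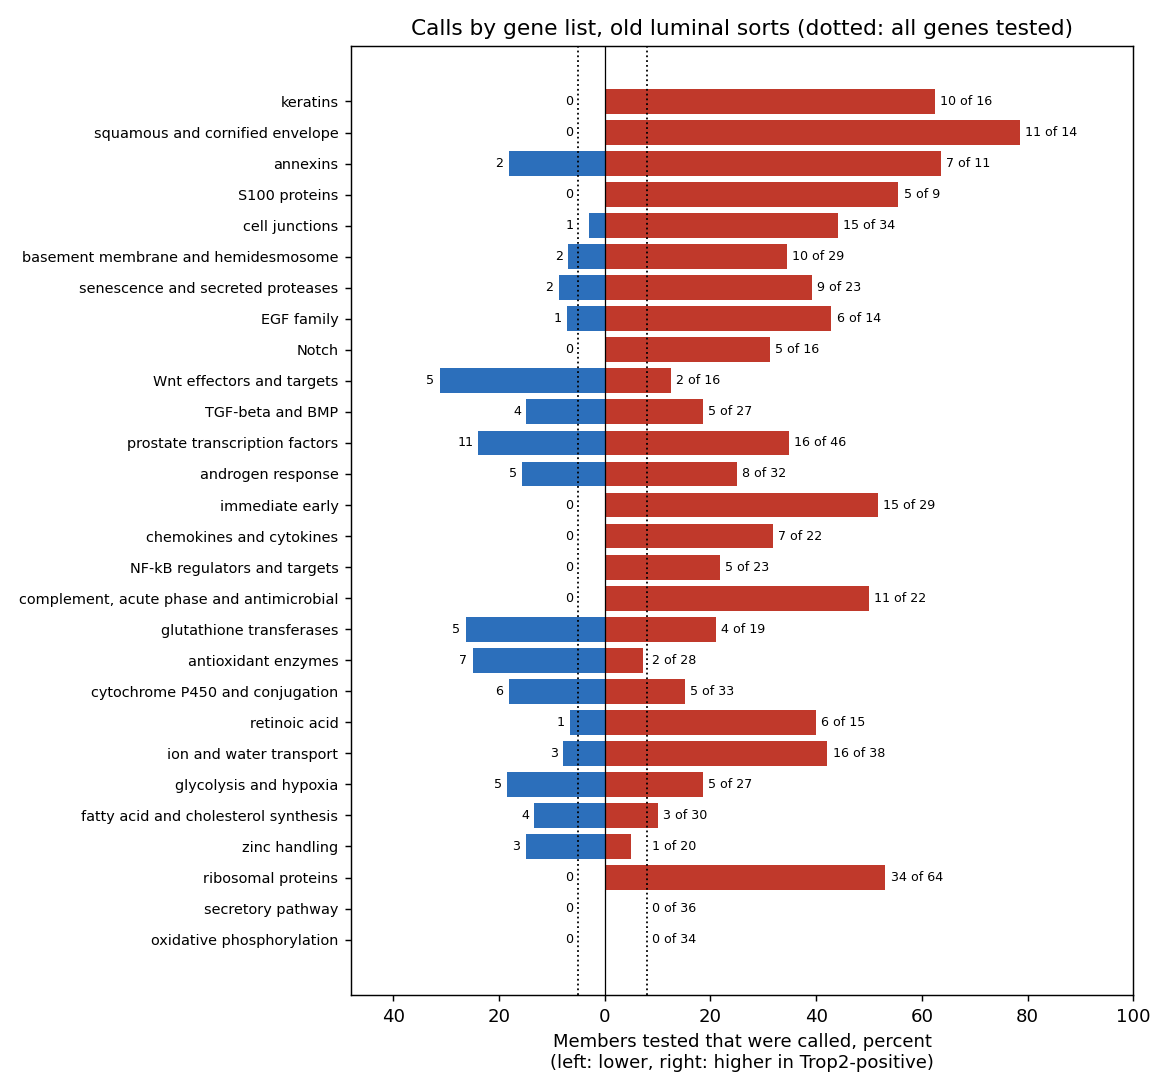
Percent of the tested members of 28 pathway and family lists, cell type markers not among them, that were called higher (red, right, with the count of members tested) or lower (blue, left) in old Trop2-positive cells, with dotted lines at 7.96% and 5.09%, the same over all genes tested. Squamous genes (11 of 14), annexins (7 of 11) and keratins (10 of 16) have the longest bars to the right among these lists, Wnt effectors (5 of 16), glutathione transferases (5 of 19) and antioxidant enzymes (7 of 28) the longest to the left, and the secretory pathway and oxidative phosphorylation have none. Lists can share members: Krt6a, Krt13 and Krt16 count in both the squamous and the keratin bars.

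Transcription factors known in prostate or luminal epithelium were called in both directions, with 16 of 46 higher and 11 lower (median 0.21). Of these 27 calls 14 held in every fit with a library left out, and without the libraries with high Svs1 the counts were 11 higher and 3 lower. Foxq1 stood at 264 and 196 CPM against 23.3 and 46.0 (2.74 ± 0.28), Runx1 at 246 and 200 against 50.5 and 59.8 (2.01 ± 0.19), and Klf5, a regulator of luminal and basal differentiation, at 504 and 370 against 113 and 143 (1.77 ± 0.17). Foxa1, a pioneer factor of endodermal and hormone-responsive epithelia, was higher by 1.37 ± 0.17 and Sox9 by 0.98 ± 0.16. On the other side, Elf5 (chromosome 2, 103411688 to 103450989), the alveolar factor of the mammary gland, stood at 15.6 and 20.2 against 68.0 and 83.9 (-2.08 ± 0.20, adjusted p = 2.08e-05). Gata2 (-1.33 ± 0.16), Tfcp2l1 (-1.20 ± 0.15) and Tbx3 (-1.06 ± 0.16) were lower too. The homeobox genes Meis1, Meis2, Hoxd13 and Hoxa10 were higher, Meis1 at 54.5 and 30.7 against 11.8 and 9.66 and Hoxd13 at 27.3 and 16.6 against 3.86 and 0.92. Hoxb13 (0.40 ± 0.20), a posterior homeobox factor of prostate, did not pass the test.

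Genes that respond to androgens went both ways, with 8 of 32 higher and 5 lower (median 0.07), and 3 and 4 without the libraries with high Svs1. Pmepa1, an inhibitor of TGF-beta signalling, stood at 86.0 and 62.3 against 10.5 and 5.52 (3.19 ± 0.30), Slc45a3, prostein, was higher by 1.42 ± 0.19, and Tmprss2, a surface serine protease, by 1.08 ± 0.20. Abcc4, a transporter of cyclic nucleotides and prostaglandins, stood at 73.5 and 84.3 against 228 and 230 (-1.53 ± 0.24), Sord, sorbitol dehydrogenase, at 52.7 and 57.3 against 142 and 189 (-1.58 ± 0.23), and Ndrg1 was lower as well (-1.24 ± 0.21). Fkbp5, a widely used androgen-responsive gene, did not pass the test (-0.13 ± 0.20). The palindromic androgen response element, searched on both strands, was in the promoter windows of 3 of the 27025 genes searched, of which 1 was tested and 0 were called.

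Secretory products of the gland were separated by product. Svs2 (chromosome 2, 164235929 to 164238466) and Svs5, seminal clotting proteins made by the anterior prostate as well as the seminal vesicle, were lower, Svs2 at 5019 and 7666 CPM against 47130 and 51232 (-2.95 ± 0.27) and Svs5 at 1420 and 2363 against 10185 and 12162 (-2.56 ± 0.31). Pate4, a small sperm-binding secretory protein, was lower at 585 and 949 against 3756 and 4726 (-2.47 ± 0.22). These 3 calls held in every fit with a library left out. Svs1, Svs3a, Svs3b and Svs6 instead followed the library: summed, they were at 23.6 and 447 CPM of the total in Trop2-positive and 882 and 18.2 in Trop2-negative libraries. Of 16 secretory luminal markers, Trpv6, a calcium channel, was the single call (10.8 and 22.8 against 54.0 and 49.1, -1.61 ± 0.26). Sbp, spermine-binding protein and the most abundant of them in Trop2-negative cells, was at 1237 and 4206 against 9509 and 9432, a wide gap that did not pass the test (-1.80 ± 0.66, adjusted p = 0.164). Pbsn, probasin, at 1011 and 740 against 848 and 1932, Tgm4 at 2063 and 1740 against 1649 and 3599, Msmb at 275 and 231 against 117 and 420 and Spink3 at 192 and 283 against 351 and 528 did not pass the test. In Pbsn, Tgm4 and Msmb the Trop2-negative libraries differed from each other by more than the groups did. Muc4 (-1.42 ± 0.26) and Muc20 (-1.64 ± 0.25), membrane mucins, were lower.

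Inflammatory and defence genes were higher in several families. Of 22 complement, acute phase and antimicrobial genes, 11 were higher and 0 lower by edgeR, 12 had an unadjusted p under 0.05 and DESeq2 called 10 (median 1.63). Cd55, which shields cells from complement, stood at 195 and 134 CPM against 10.4 and 22.1 (3.35 ± 0.32), Pigr, the receptor that carries IgA into secretions, at 1290 and 1243 against 450 and 719 (1.12 ± 0.19), and Reg3g, an antibacterial lectin, at 23.8 and 30.7 against 3.34 and 1.23 (3.55 ± 0.65). Outside this list, Fcgbp, an IgG-binding mucus protein, stood at 136 and 116 against 7.33 and 11.3 (3.76 ± 0.22, adjusted p = 4.34e-07). Of the complement list, Defb1 and C1ra did not pass the test. Without the libraries with high Svs1, 4 were higher. The myeloid marker Cd14 was higher too, at 13.7 and 16.5 against 4.11 and 5.83, beside the myeloid sums given above, and its part in these values was not tested. Of 22 chemokines and cytokines, 7 were higher and 0 lower by edgeR, with 10 at an unadjusted p under 0.05 and 7 called by DESeq2, and 3 were higher without the libraries with high Svs1. Cxcl17, a mucosal chemokine, stood at 65.3 and 62.3 against 2.44 and 8.74 (3.54 ± 0.40), and Lif, an interleukin-6 family cytokine, at 27.0 and 24.1 against 0.771 and 4.14 (3.41 ± 0.70). NF-kB subunit genes rose by smaller amounts, Rel by 1.76 ± 0.29, Nfkb1 by 1.30 ± 0.16 and Nfkb2 by 0.86 ± 0.16 on the log2 scale, while Rela (0.34 ± 0.13) and Nfkbia (0.07 ± 0.15) did not pass. Interferon-stimulated genes gave 2 higher and 0 lower of 26 by edgeR, with 7 at an unadjusted p under 0.05 and 3 called by DESeq2, and a median of -0.01. That is 7.69% called by edgeR, beside 13.0% of all genes tested.

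Immediate early genes, which cells switch on within minutes of a stimulus such as tissue dissociation, stood beside these results. Of 29 tested, 15 were higher and 0 lower by edgeR, 21 had an unadjusted p under 0.05 and DESeq2 called 18 (median 0.62). Of the 15 calls 6 held in every fit with a library left out, and 11 were higher without the libraries with high Svs1. Ier5 stood at 402 and 274 CPM against 38.3 and 61.6 (2.76 ± 0.28), Fosl1, a Fos family member of long-lasting AP-1 activity, at 510 and 388 against 106 and 159 (1.77 ± 0.21), and Egr1 was higher by 0.91 ± 0.14. Jun (1926 and 1568 against 1948 and 2092), Jund and Atf3 (-0.05 ± 0.15) were expressed highly in both groups and did not pass the test. Of 17 heat shock genes 5 were higher and 1 lower, Dnajb1 most clearly (1.28 ± 0.17), while Cryab, a small heat shock protein, fell by 1.82 on the log2 scale. The part of handling or sorting in these values, or in the chemokine genes above, was not tested.

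Enzymes that handle glutathione and oxidants gave calls in both directions. Of 19 glutathione transferases, 5 were lower and 4 higher (median -0.51). Gstm1 stood at 178 and 200 CPM against 526 and 569 (-1.53 ± 0.14), Gstp1 at 48.9 and 65.4 against 196 and 201 (-1.79 ± 0.18) and Gstm7 at 5.32 and 9.60 against 35.2 and 29.9 (-2.12 ± 0.37). Members of these families share sequence, and as sums the Gstm genes were at 365 ± 58.4 CPM of the total against 902 ± 20.1, and Gstp1 with Gstp2 at 59.9 ± 15.4 against 211 ± 5.65. Of 28 antioxidant enzymes, 7 were lower and 2 higher (median -0.17). Nqo1, a quinone reductase, stood at 3.34 and 6.62 against 32.8 and 30.1 (-2.64 ± 0.44), Gclc, the rate-limiting enzyme of glutathione synthesis, was lower (-1.37 ± 0.17), and Cat, catalase, was lower as well. Srxn1, sulfiredoxin, another gene of the oxidant response, was higher by 0.79 ± 0.17, and Hmox1 (0.13 ± 0.34) and Txnrd1 (0.15 ± 0.13) did not pass the test. Gclm, the partner subunit of Gclc, was lower at 59.5 and 67.7 against 101 and 115 (-0.76 ± 0.18). Without the libraries with high Svs1, 1 higher and 2 lower transferases and 0 higher and 2 lower antioxidant enzymes were called by edgeR.

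Cytochromes and carbonyl reductases gave 5 higher and 6 lower of 33 (median -0.05). Cbr2, a carbonyl reductase of airway club cells, stood at 1080 and 892 CPM against 116 and 144 (2.92 ± 0.19, adjusted p = 7.11e-07), and Cyp2f2, another club cell enzyme, at 522 and 417 against 6.17 and 29.4 (4.75 ± 0.71, adjusted p = 0.0160), a call lost when a library was left out. The relatives Cbr1 (-1.36 ± 0.21) and Cbr3 (-1.80 ± 0.41) were lower. Retinoic acid genes were higher in 6 of 15 tested and lower in 1, and without the libraries with high Svs1 the counts were 3 and 0 by edgeR. The median log2 difference of the retinoic acid list was -0.09, with 7 members above 0 and 8 below. Stra6, which takes up retinol from its carrier, stood at 49.8 and 38.7 against 1.80 and 3.37 (4.10 ± 0.52), and the oxidising enzymes Rdh10 (0.87 ± 0.24) and Aldh1a3 (43.1 and 30.7 against 0.257 and 0.460) were also higher. Aldh1a1, at 152 and 200 against 185 and 189, did not pass the test. Among receptors Rarg was higher (1.12 ± 0.21), whereas Rara, at 87.8 and 90.7 against 152 and 144, and Rxra did not pass.

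Metal and ion transport held some of the smallest p-values. Slc39a8, the zinc and manganese importer ZIP8 (chromosome 3, 135825279 to 135888572), stood at 246 and 232 CPM against 19.5 and 27.1 (3.36 ± 0.17, 10.3-fold, adjusted p = 2.37e-07). Slc30a2, the vesicular zinc exporter ZnT2, stood at 19.9 and 24.5 against 67.7 and 69.5 (-1.62 ± 0.20), and the zinc-binding metallothioneins were lower, Mt1 with Mt2 summing to 545 ± 116 CPM of the total against 1092 ± 86.8. Over the list of 20 zinc genes, 1 was higher and 3 lower. Of 38 ion and water transport genes, 16 were higher and 3 lower (median 0.79), and 14 of the 19 calls held in every fit with a library left out, with 8 higher and 3 lower once the high-Svs1 libraries were set aside. Scnn1a, a chain of the epithelial sodium channel, stood at 281 and 212 against 82.4 and 69.3 (1.70 ± 0.24). The potassium channels Kcnk5 (2.48 ± 0.26) and Kcnn4 (54.1 and 46.4 against 11.7 and 10.6) and the chloride-loading cotransporter Slc12a2 (1.03 ± 0.18) were higher. Slc26a3, an apical chloride and bicarbonate exchanger, was lower at 9.42 and 10.5 against 60.5 and 65.8 (-2.66 ± 0.28), and so was Atp1b3, a sodium pump subunit (-1.61 ± 0.16), while the subunit Atp1b1 was higher (0.61 ± 0.13).

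Among metabolic genes, the clearest differences were of single enzymes. Pfkfb3, which makes the activator of phosphofructokinase (chromosome 2, 11471433 to 11554077), stood at 151 and 205 CPM against 1296 and 1213, 7.05-fold lower (-2.82 ± 0.16, adjusted p = 4.34e-07). Ldhb was lower at 43.6 and 52.9 against 144 and 153 (-1.62 ± 0.18), and Pgk1 higher by 0.88 ± 0.14, although 53.9% of the windows of Pgk1 recur in another gene. Glycolysis and hypoxia genes were called 5 higher and 5 lower of 27, and 0 and 2 by edgeR without the libraries with high Svs1. In lipid synthesis 3 of 30 were higher and 4 lower, and 1 and 2 without those libraries. Acacb, the mitochondrial acetyl-CoA carboxylase, stood at 7.29 and 9.99 against 72.2 and 61.5 (-2.94 ± 0.23, adjusted p = 3.39e-06). Fasn (0.08 ± 0.16) and Scd1 (0.24 ± 0.16) did not pass the test. Citrate cycle genes gave 1 higher and 1 lower of 25 (median -0.05), which is 8% called beside 13.0% of all genes tested.

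Of 64 ribosomal protein genes, 34 were higher and 0 lower by edgeR, 58 had an unadjusted p under 0.05 and DESeq2 called 45, and all 64 had a log2 difference above 0 (median 0.55, from 0.27 to 1.11). Rps3, with 506 and 399 CPM against 238 and 312, is typical of them. The differences were small, and 1 call, Rplp1, held in every fit with a library left out, and 1 was higher without the libraries with high Svs1. Of 27 translation factors 9 were higher and 1, the inhibitor Eif4ebp1, lower (median 0.35), 0 of these calls held in every fit with a library left out, and without the libraries with high Svs1 edgeR called 0 of them. Of 36 genes of the secretory pathway, 0 were called by edgeR or DESeq2 and 3 had an unadjusted p under 0.05 (median -0.03), with Sec61a1, the translocon channel, at 310 and 324 against 320 and 334. Of 34 oxidative phosphorylation genes, 0 were called by edgeR or DESeq2 and 3 had an unadjusted p under 0.05 (median -0.04). Hspa5, the main chaperone of the endoplasmic reticulum, did not pass the test (0.25 ± 0.16), while Ddit3, a stress-induced factor of the same response, was lower at 21.7 and 24.7 against 52.2 and 53.1 (-1.18 ± 0.21). Cell cycle genes were called in 12.5% of those tested, near the 13.0% over all genes tested. Of 24 cell cycle genes, 3 were higher, Mki67 (24.1 and 12.5 against 3.47 and 6.44), Mcm6 and Stmn1, and none of these calls held in every fit with a library left out.

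The comparison at 3 months, with 2 libraries in each group, called 1620 genes (11.9%). Of the 1774 genes called at 24 months, 1036 were also called in the same direction at 3 months, which is 58.4% of the old and 64.0% of the young calls, 703 higher and 333 lower. The young fit drew on the same estimate of spread but on other libraries. Among the young libraries, leaving out Trop2-negative library 1 or 2 gave 683 or 770 calls, and leaving out Trop2-positive library 1 or 2 gave 967 or 2618. Setting aside the high-Svs1 libraries gave 677. A gene called at one age and not at the other is not thereby shown to differ, and the difference between the ages was tested directly: 7 of 13598 genes passed (0.0515%), against 951 at an unadjusted p under 0.05. That count was 1 without either old Trop2-positive library, 2 without young Trop2-negative library 2, 20 without old Trop2-negative library 2 and 70 without young Trop2-positive library 2. Col7a1 was lower at 24 months (-3.36 ± 0.16) and at 3 months (-1.97 ± 0.16), where it stood at 30.6 and 34.8 CPM against 123 and 132. The difference of -1.40 ± 0.22 passed the test (adjusted p = 0.0397), and its level in Trop2-negative cells was 243 and 240 at 24 months. Bex1, a small signalling adaptor, was higher at both ages, by 0.94 ± 0.23 at 24 months and 3.34 ± 0.26 at 3 months (difference -2.40 ± 0.35, adjusted p = 0.0235). Col7a1 apart, the marker and plasminogen genes did not pass this test: the difference between ages was 1.23 ± 0.31 for Anxa1 (adjusted p = 0.301), 0.71 ± 0.32 for Gsto1 (0.705) and -0.06 ± 0.33 for Plaur (0.989). With the replicate number added to the fit as a block, 1 gene passed, and its difference was positive. Col7a1 and Bex1, whose differences were negative, therefore did not pass in that fit.

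**Figure D5:**
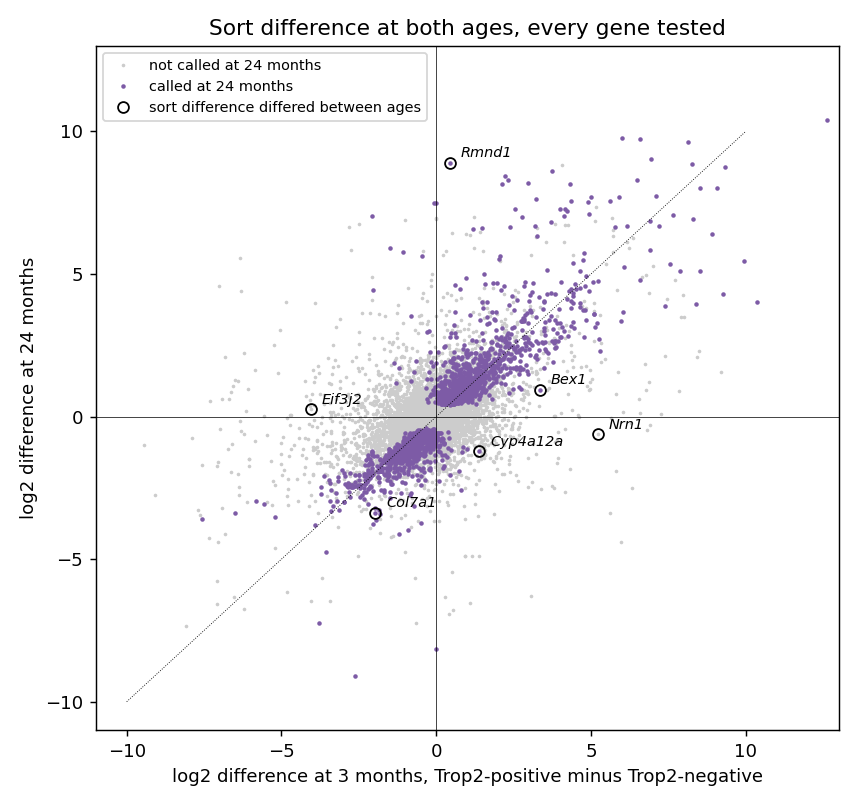
Log2 difference between Trop2-positive and Trop2-negative luminal cells at 24 months (vertical) against that at 3 months (horizontal) for every gene tested, purple where called at 24 months, with 6 genes whose difference itself differed between ages circled. Most purple points lie in the upper right and lower left corners, while Rmnd1, Eif3j2, Cyp4a12a, Nrn1, Bex1 and Col7a1 lie off the dotted line of equal difference.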

How the data were processed

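RNA was taken from sorted luminal and stromal cells of mouse prostate with RNeasy Mini columns, and libraries were KAPA Stranded mRNA-Seq, per the labels' protocols. The tools bcl2fastq (2.17), Bowtie2 (2.1.0) and RSEM (1.2.15) and the builds mm10 and GRCm38 are named in the submitters' processing notes. The strand setting of the counting is not given in the sources used here. The deposited tables give, per the file headers, an expected count, TPM, FPKM and the gene and effective lengths in bases for each gene and library, as the authors' RSEM runs estimated them. FPKM and another normalized table named in the labels were not used here.

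The expected counts, rounded to integers, were tested with edgeR (4.0.16, quasi-likelihood with robust fitting, TMM, filterByExpr) in R (4.3.3) on the 8 luminal libraries, so that 4 groups of 2 share one estimate of spread, with Benjamini-Hochberg adjustment over the 13598 genes tested, two-sided, called at an adjusted p under 0.05. The same fit gave the young comparison and the difference between ages. Alternatives were DESeq2 (1.42.0), limma (3.58.1) on log2(TPM + 1) and on log2(TPM + 0.1), other scalings and filters, the 4 old libraries alone, and each library left out in turn. Copies were judged by the share of 50-base transcript windows found in another gene, and 33 of 1711 called genes with transcripts shared at least 50%. Figures were drawn with matplotlib (3.10.9). The tests were also run on simulated data with 200 changed genes and no shift particular to a library. That run does not check how the tests behave under differences between libraries such as those of Svs1. No replicate pair differed by less than sampling noise.

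The genes named are the 3 markers, the 8 largest increases and decreases with a mean of at least 5 CPM, the 8 smallest adjusted p, the 8 most abundant genes per group, up to 4 called members per direction of each list, its first 2 members and 2 not called, and up to 6 genes per direction whose difference changed with age. Further members of the 57 lists were named after their values were seen, to complete a family. The comparison, its markers and the lists were chosen with earlier results of these data known. Some items that this rule takes are not reported here. Replicate numbers shared by the groups were not used to pair the libraries in the main fit.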

Additional observations from a re-analysis of the deposited data

Results flagged for a closer look

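The difference between Trop2-positive and Trop2-negative cells itself differed between 24 and 3 months in 7 genes (edgeR's quasi-likelihood test, Benjamini-Hochberg adjusted over all genes tested), of which 6 are given below by the old minus the young log2 difference.

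Eif3j2, a translation initiation subunit, had a value of 4.31 ± 0.27 (adjusted p = 4.50e-06), with 163 and 150 CPM against 109 and 154 in old cells and 13.2 and 10.4 against 201 and 193 in young cells. It shares 91.8% of its windows with another gene, so Eif3j1 and Eif3j2 are better read as a sum. In old cells the sum was 163 ± 0.718 CPM of the total against 155 ± 12.8. In young cells it was 139 and 166 against 195 and 175, a far smaller gap than that of Eif3j2 alone. The age difference of Eif3j2 is therefore not shown for the 2 copies together. Cyp4a12a, a fatty acid hydroxylase, had -2.61 ± 0.30 (adjusted p = 0.00507), with 31.6 and 35.3 against 82.4 and 73.0 in old and 189 and 147 against 49.7 and 78.7 in young cells, and shares 48.9% of its windows. Rmnd1, a mitochondrial translation factor, had 8.46 (adjusted p = 0.0177), a fitted value that depends on the count added for its 0 and 0 CPM in old Trop2-negative libraries, beside 9.42 and 8.43 in old Trop2-positive and 14.2 and 14.2 against 11.2 and 9.61 in young cells.

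Bex1 had -2.40 ± 0.35 (adjusted p = 0.0235), with 57.4 and 47.5 against 22.5 and 32.2 in old and 74.1 and 67.6 against 6.09 and 7.95 in young cells. Nrn1, neuritin, had -5.83 ± 0.83 (adjusted p = 0.0235), with 7.59 and 6.10 against 12.6 and 8.28 in old and 9.95 and 10.4 against 0.156 and 0.370 in young cells. Col7a1 had -1.40 ± 0.22 (adjusted p = 0.0397), with the levels given in the report. With the replicate number added to the fit as a block, 1 of the 7 genes still passed, with a positive difference. Cyp4a12a, Bex1, Nrn1 and Col7a1, whose values were negative, therefore did not pass in that fit.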

How the results depend on the processing

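The old comparison called between 1249 and 2278 genes under the other scalings, filters, tests and blocks, and every one of the 1774 calls that could be tested kept its direction. Leaving out single libraries gave 680 to 2295 calls, and leaving out the 3 libraries with high Svs1 gave 551. The young comparison gave 683 to 2618 with a library left out and 677 without the high Svs1 libraries, and with limma on log2(TPM + 1) its split was 1784 higher and 235 lower instead of 1076 and 544. The 7 genes whose difference changed with age became 20 with library totals, 168 with no filter and 68 with DESeq2, and 1 to 70 with a library left out. The causes were not tested, and fits that left a single library in a group also lost the replication of that group. Of 173 called genes named in the text, 0 to 15 lost their call under other scalings, filters and tests, 3 to 40 with a library left out and 54 without the high Svs1 libraries, and none of them changed direction.

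With the replicate number as a block, 1253 genes were called in the old comparison, 1143 in the young one and 1 for the difference between ages. Deviations of same-numbered libraries correlated at -0.26 in old and -0.09 in young cells over 8554 genes. With a single pair of deviations per age, this cannot decide whether same-numbered libraries came from the same mice. The crossed pairing, chosen after seeing this correlation, called 2278, 2118 and 76.

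With 2 libraries per group and 6311944 to 7212231 counts, genes near the limit of 0.416 to 0.475 CPM are resolved poorly, and the number of mice behind each library is not described.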

Other observations

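Of 18 circadian clock genes, 1 was called higher and 3 were called lower at 24 months. Of 14 polyamine genes, 3 were higher and 1 lower, and of 12 Hippo targets 3 were higher and 1 lower. The shares called were 22.2% for clock, 28.6% for polyamine and 33.3% for Hippo genes, beside 13.0% of all genes tested. In each of these lists some calls were lost when a library was left out. Tead4, a DNA-binding partner of YAP, stood at 34.2 and 35.5 CPM against 3.34 and 7.82 (2.66 ± 0.46). Mfge8, a secreted protein that bridges dying cells to phagocytes, was higher by 3.48 ± 0.21. Dynlt1b, a dynein light chain, was listed with 0 counts in both old Trop2-positive libraries and at 7.07 and 13.5 CPM in Trop2-negative ones, but it shares 83.2% of its windows, and the sum of Dynlt1a and Dynlt1b was 36.7 ± 7.33 CPM of the total against 45.6 ± 9.19.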
